A study of Mus musculus with 2208 samples.

Results

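The cells described here were those with a high and those with a low interferon score in 3 CKp25 mice at 2 weeks, in single cells sorted from the hippocampus by CD11b and CD45. FPKM is the number of sequenced fragments of a gene scaled to the length of the gene and to all mapped fragments of the cell. The score of a cell was the mean of log2(FPKM + 1) over 6 interferon-stimulated genes, Ifit1, Ifit3, Irf7, Oasl2, Rtp4 and Ifi27l2a. Cells in which 1000 genes or more reached FPKM 1 were kept, without the first well of any mouse. The kept cells of each mouse were ranked by score and divided into 3 sets of like size, called score-low, score-middle and score-high. Of 288 wells 255 were kept, and 84 cells were score-high and 84 score-low, 168 in all, out of 2003 kept cells and 2208 wells in the series. Mice 1, 2 and 3 gave 31, 31 and 22 cells to each of these sets, and 87 cells were score-middle.

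CKp25 mice make p25, which activates the kinase Cdk5, on induction in forebrain neurons under a Camk2a promoter, so p25 is not driven in the sorted cells themselves. CK mice, the littermate controls, carry the neuronal driver without p25. The series held 25 mice in 8 groups, 2 genotypes at 0 weeks (before p25 induction) and at 1, 2 and 6 weeks after it. The groups used here were CKp25 at 2 weeks (3 mice, aged 3 months and 2 weeks), CK at 2 weeks (3 mice of that age, 281 kept cells) and CKp25 at 6 weeks (4 mice, aged 4 months and 2 weeks, 227 kept cells). Each 2-week mouse has 96 wells numbered as 1 full plate, so at 2 weeks mouse and plate cannot be told apart. The study states 2183 single-cell libraries, which is the number of wells without the 25 first wells, at a median of 251353 mapped reads per cell.

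Type I interferons bind a receptor of the chains Ifnar1 and Ifnar2, which activates the kinases Jak1 and Tyk2. These phosphorylate Stat proteins, Stat2 among them, which join Irf9 and bind the interferon-stimulated response element of target genes. The targets include antiviral effectors, sensors of foreign nucleic acid, the antigen presentation machinery and Usp18, which shuts the receptor off. In the brain, microglia are both a source of interferon and a cell that responds to it, and a microglial state with high interferon-stimulated genes is known from ageing and neurodegeneration.

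The promoters of 4 genes are printed because they show the response element beside the genes the results turn on: the score gene Ifit3, and Isg15, Rsad2 and Irgm1, which were tested. Each is the 250 bases before the transcription start, 5′ to 3′ on the gene's strand, from RefSeq on build GRCm38.p6. Capitals mark the core of the response element, GAAA then any 2 bases then GAAA, or its reverse complement, TTTC then any 2 bases then TTTC, and overlapping matches run together. The windows are chr19:34583279-34583528 (plus strand) for Ifit3, chr4:156200819-156201068 (minus strand) for Isg15, chr12:26456453-26456702 (minus strand) for Rsad2 and chr11:48871421-48871670 (minus strand) for Irgm1.
Ifit3: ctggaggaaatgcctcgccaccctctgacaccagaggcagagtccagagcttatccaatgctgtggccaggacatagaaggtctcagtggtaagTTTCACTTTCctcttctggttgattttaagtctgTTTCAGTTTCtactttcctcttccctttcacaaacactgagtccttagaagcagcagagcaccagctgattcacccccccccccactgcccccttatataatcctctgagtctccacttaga
Isg15: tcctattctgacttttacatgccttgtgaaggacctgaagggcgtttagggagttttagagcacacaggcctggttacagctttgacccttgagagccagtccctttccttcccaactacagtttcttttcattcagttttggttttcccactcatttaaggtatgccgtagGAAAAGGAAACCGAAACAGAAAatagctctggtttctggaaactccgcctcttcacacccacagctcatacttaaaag
Rsad2: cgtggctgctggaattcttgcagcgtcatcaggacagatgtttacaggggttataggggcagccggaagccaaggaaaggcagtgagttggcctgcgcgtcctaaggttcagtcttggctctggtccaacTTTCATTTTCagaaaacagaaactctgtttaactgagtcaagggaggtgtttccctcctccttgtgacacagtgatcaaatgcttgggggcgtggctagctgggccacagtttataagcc
Irgm1: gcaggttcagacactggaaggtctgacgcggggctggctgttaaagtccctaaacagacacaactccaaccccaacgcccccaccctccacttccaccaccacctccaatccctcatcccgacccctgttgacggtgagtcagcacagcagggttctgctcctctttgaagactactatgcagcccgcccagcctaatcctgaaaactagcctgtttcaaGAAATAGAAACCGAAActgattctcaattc

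Matches began at -156 and -122 in Ifit3, at -78, -72 and -66 in Isg15, at -120 in Rsad2 and at -30 and -24 in Irgm1. Over windows of 300 bases, 250 before and 50 after the start, searched on both strands, the core was present in 3.99% of 27025 genes and in 3.95% of the 6438 genes that were tested below and had a window. It was present in 2 of 4 score genes with a window, in 29 of 62 antiviral effector genes (46.8%), in 9 of 10 guanylate-binding and immunity-related GTPase genes, in 2 of 9 transcription factors of the pathway, in 0 of 7 receptors and kinases and in 0 of 17 homeostatic microglia genes. Of the genes called higher in score-high cells below, 25 of 83 with a window held it (30.1%). A match is a description of the sequence and was not tested as a site. Rtp4, Ifi27l2a, Usp18, Zbp1, Pyhin1, Oas2 and Mx1 were not in the promoter table.

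The score ran from 0 to 8.47, 8.84 and 8.61 in CKp25 2-week mice 1, 2 and 3. Its median over kept cells was 4.12, 3.91 and 4.33 in mice 1, 2 and 3, while the median was 0 in each CK 2-week mouse, where 230 of 281 cells (81.9%) scored 0. Among CK 2-week cells 1 reached the lowest score-high value. The score-low cells were not cells without these genes: 13 of 84 (15.5%) scored 0, and the median score-low cell had 2 of the 6 score genes at FPKM 1 or above in each mouse, against 5, 5 and 5.5 genes in the score-high cells. Where the sets meet, the highest score-low value was 3.20, 2.98 and 3.65 and the lowest score-middle value 3.46, 3.02 and 3.77. The highest score-middle value was 4.999, 4.72 and 4.95 and the lowest score-high value 5.02, 4.77 and 5.03, so no gap in score separated the sets.

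These values chose the cells and are given as a description. Irf7, a transcription factor that amplifies interferon production, was found in 22.6%, 29.0% and 45.5% of score-low cells of mice 1, 2 and 3, and in 100%, 100% and 95.5% of score-high cells. Ifit3, which binds viral RNA with its family members, went from 12.9%, 12.9% and 18.2% to 87.1%, 80.6% and 95.5% of cells. Ifi27l2a stayed common in score-low cells, at 51.6%, 58.1% and 59.1% of cells, and Ifit1 stayed incomplete in score-high cells, at 51.6%, 41.9% and 63.6%. For each score gene, cells were also ranked by the other 5 genes and cut into new upper and lower sets. The gene's own mean difference between these sets on the log2 scale was 2.12 for Rtp4, 2.46 for Ifit1, 2.53 for Ifi27l2a, 3.37 for Ifit3, 3.48 for Irf7 and 3.68 for Oasl2, each higher in the upper set.

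Score-high cells also held more genes. The median number of genes reaching FPKM 1 was 2452, 2694 and 2705 in score-low cells of mice 1, 2 and 3, and 2685, 3470 and 3534 in score-high cells. The difference was 613 ± 330 genes (SD, n = 3 mice), higher in 3 of 3 mice, with a 2-sided exact sign-flip permutation p of 0.25, the smallest that 3 mice allow. Over the 7 CKp25 mice of 2 and 6 weeks it was 650 ± 347 genes, higher in 7 of 7, with an exact permutation p of 0.0156, again the smallest possible. Cells were therefore also ranked by score within groups of 3 cells with neighbouring numbers of genes, which gave matched sets. In the matched sets the 2-week difference was 8.17 ± 54.2 genes, and values from the matched sets are given beside the others. How far genes per cell accounts for a difference was not tested beyond this matching.

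**Figure D1:**
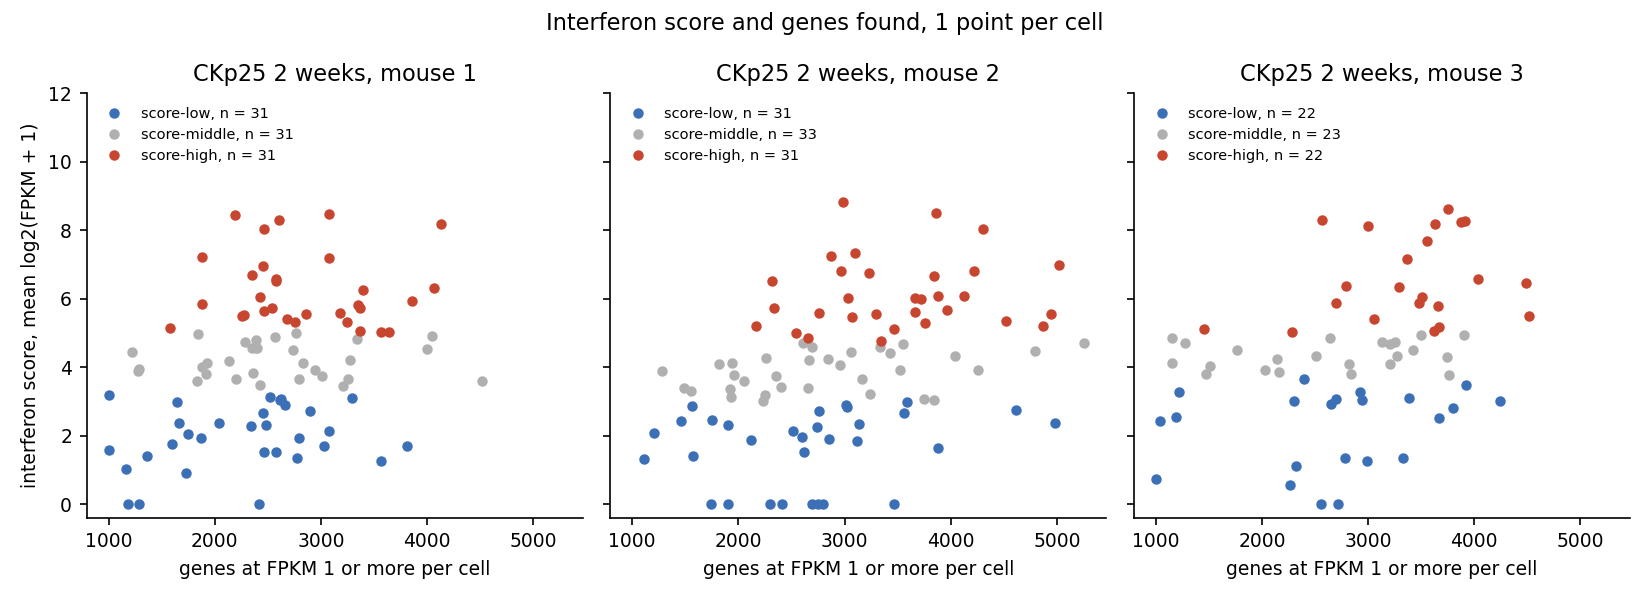
Interferon score (vertical axis, mean log2(FPKM + 1) over the 6 score genes) against the number of genes reaching FPKM 1 (horizontal axis), 1 point per kept cell of CKp25 mice 1, 2 and 3 at 2 weeks. The sets meet without a gap, and score-high cells lie towards more genes, with medians of 2685, 3470 and 3534 against 2452, 2694 and 2705.

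With the score genes left out, 122 genes were higher and 0 lower in score-high than in score-low cells, and the 12 largest differences were all in genes of the interferon response, nucleic acid sensor and chemokine lists. The test compared mean log2(FPKM + 1) profiles per mouse with limma, with the mouse as a block, over 8402 genes with an adjusted p under 0.05. The share called higher was 1.45%. Before adjustment, 1105 genes were higher and 19 lower at p under 0.05. Of the 122, 61 were in the interferon, MHC class I and immunoproteasome lists, which had 146 tested genes together, and 58 were in no list. The median of all tested genes was itself shifted by 0.26 towards the score-high cells, and 78.7% of genes lay above 0. All 122 were higher in 3 of 3 mice, which was also true of 36.5% of all tested genes.

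In the matched sets the median of all genes was -0.02, and 12 genes (0.143%) stayed past the threshold: Ifi204, Ifit2, Ifitm3, Isg15, Mx1, Oas2, Oasl1, Pyhin1, Rsad2, Sp100, Usp18 and Zbp1. None was called lower (188 at an unadjusted p under 0.05, against 294 higher). All 12 were among the 122 and in the interferon lists, and all were higher in 3 of 3 mice, against 13.7% of all tested genes. The 122 genes kept differences above 0 in the matched sets, which also lay closer in score, with a median of 1.43 against 2.17 before matching. The number of calls rested on all 3 mice: without mouse 1, 2 or 3 it was 54, 24 or 27 (and 202 without 6-week mouse 1, which shares the fit). In the matched sets it was 0 without any 1 of the 3, while the 12 differences stayed above 0. Of the list members described below (difference in brackets for some), Eif2ak2, Nlrc5, H2-K2, H2-Q7 and Psme2 missed the threshold without any 1 of the 3 mice. Ddx58, Tap1, H2-T24, Psmb8, Cxcl10 and Ifi204 missed it without mouse 2 or mouse 3, and Irgm1 without mouse 1 (2.91) or mouse 3 (2.50). Bst2 (2.67) and Psmb9 (2.32) missed it without mouse 2, and Ccl12 (2.91) and Mx1 (2.34) without mouse 3. The sets were chosen by a readout of the same libraries, so a call says that a gene moved with the score over cells in these mice.

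**Figure D2:**
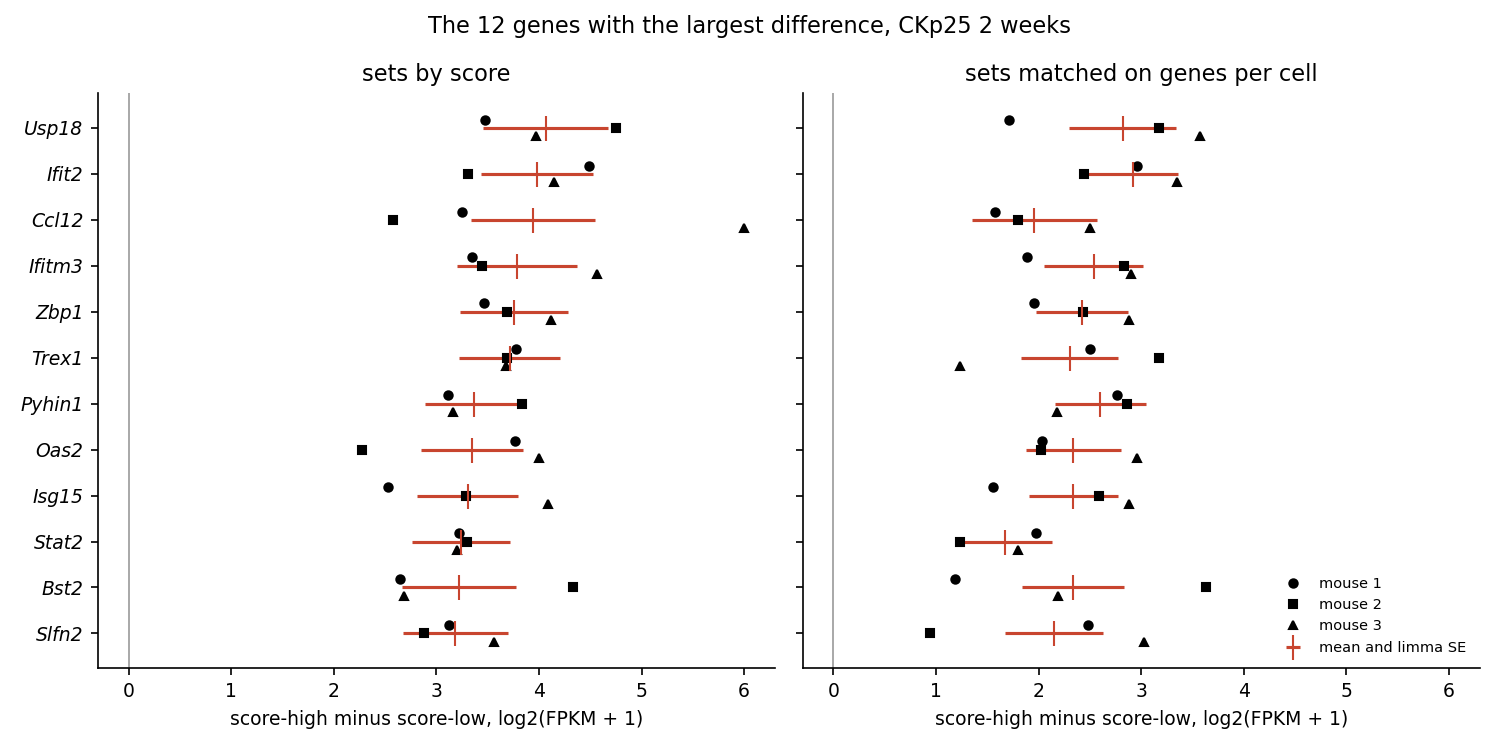
Score-high minus score-low (horizontal axis, mean log2(FPKM + 1)) for the 12 genes with the largest called differences at 2 weeks, in sets by score (left) and in sets matched on genes per cell (right). Symbols are the 3 mice, red ticks the mean and red bars its limma standard error; every mouse lies above 0, and the mean differences are smaller in the matched sets.

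Usp18, a protease that removes Isg15 from proteins and blocks the interferon receptor, had the largest difference. Its mean log2 level was 1.09, 1.20 and 1.64 in score-low cells of mice 1, 2 and 3, 4.56, 5.95 and 5.60 in score-high cells, and 0.07, 0.21 and 0.16 in the CK mice. The 3 groups did not overlap. The gene was found in 19.4%, 19.4% and 31.8% of score-low cells and in 67.7%, 90.3% and 81.8% of score-high cells. The difference between sets was 4.06 ± 0.61 (limma SE, adjusted p = 0.000322), and 2.82 ± 0.52 (adjusted p = 0.0265) in the matched sets. It was the 1 of 6 tested feedback inhibitors past the threshold. All 6 lay above 0, with a median of 1.01, and the median was 0.21 in the matched sets, where Usp18 was again the 1 that passed. Socs1 and Socs3, which block the receptor kinases, differed by 0.13 (95% interval -0.34 to 0.60) and 1.17 (0.08 to 2.26).

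Antiviral effectors, the list with the most tested genes, had more called genes than any other list. Of 64 tested, 40 were higher and 0 lower, with a median of 2.00 (1.38 in the matched sets, where 10 were higher), beside medians over all genes of 0.26 and -0.02. Ifit2, which binds viral RNA, was at 1.58, 1.38 and 1.63 in score-low and 6.07, 4.70 and 5.77 in score-high cells of mice 1, 2 and 3, and at 0.18, 0.10 and 0.32 in the CK mice. Score-high cells lay above score-low cells in every mouse, by 3.98 ± 0.55 (limma, adjusted p = 0.000271) and by 2.92 ± 0.45 (adjusted p = 0.0136) after matching. Ifitm3, a membrane protein that blocks viral entry, was already high in score-low cells, at 4.46, 4.64 and 4.99, and reached 7.80, 8.09 and 9.55 in score-high cells, while the CK mice were at 0.27, 0.39 and 0.41. Its mean FPKM was 203 ± 24.1 in score-low and 798 ± 156 in score-high cells (SD, n = 3 mice). The difference was 3.79 ± 0.58 (limma, adjusted p = 0.000386), and 2.54 ± 0.48 after matching (adjusted p = 0.0272).

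Other effectors were low in score-low cells. Isg15, a ubiquitin-like protein, was at 1.14, 0.00 and 0.50 in score-low cells, 3.67, 3.29 and 4.59 in score-high cells and 0.53, 0.51 and 0.12 in the CK mice. The score-low cells and the CK mice overlapped (difference 0.17, 95% interval -0.27 to 0.60), and the score-high cells stood above both. Score-low cells were chosen for a low score and CK cells were not, so this overlap is in part set by that choice. Oas2, which makes the second messenger that activates RNase L, was at 1.01, 0.72 and 0.82 in score-low cells and 4.78, 3.00 and 4.82 in score-high cells, and Oas2 was listed at 0 in all cells of 2 of 3 CK mice. Its level in score-low cells was above CK by 0.83 ± 0.16 (limma, adjusted p = 0.00371). Isg15 differed between sets by 3.30 ± 0.49 and Oas2 by 3.35 ± 0.50 (limma, adjusted p = 0.000322 for each), and by 2.34 ± 0.44 and 2.34 ± 0.46 after matching (adjusted p = 0.0265 and 0.0399). Rsad2, an enzyme that makes a chain-terminating nucleotide, was found in 12.9%, 9.68% and 9.09% of score-low and 51.6%, 51.6% and 68.2% of score-high cells. Mx1, a GTPase that traps viral ribonucleoproteins, was found in 19.4%, 16.1% and 4.55% against 64.5%, 51.6% and 77.3%.

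Bst2, a tether that holds budding virus, differed by 3.22 (2.34 after matching), Slfn2 by 3.18 (2.15) and Pyhin1, a member of the DNA-binding Ifi200 family, by 3.37 (2.60), of which Pyhin1 passed in the matched sets. Lgals3bp, also in this list, did not pass: it was found in 96.8%, 96.8% and 95.5% of score-low and in 100% of score-high cells, with a difference of 1.27 (95% interval 0.42 to 2.11, limma adjusted p = 0.137). Pyhin1, Ifi204, Oas1a, Oas1g, Slfn2, Slfn5, Slfn8, Trim30a, Trim30d, Phf11a, Phf11b and Phf11d belong to families with near-identical copies, so their FPKM may share reads.

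For 10 of the 12 genes with the largest differences, the level among cells in which the gene was found could be set beside the share of such cells in all 3 mice. Usp18 averaged 5.65 ± 0.52 in score-low and 6.72 ± 0.13 in score-high cells that had it (SD, n = 3 mice). Ifitm3 averaged 7.85 ± 0.28 and 9.27 ± 0.30. All 10 had a higher mean level where found in score-high cells, as well as a larger share of cells. These genes were picked for their difference between the same cells, so this is a description, and no share over all genes was computed. Some score-low levels rested on few cells of mice 1, 2 and 3: 6, 6 and 7 for Usp18 and 6, 7 and 4 for Oas2. In score-middle cells, the mean level lay between the other sets for 113 of the 122 genes (92.6%) and for all 12 genes called after matching, against 38.9% of all tested genes. The 122 and the 12 were chosen for a difference between the outer sets, and score-middle cells were cut on the same score. A level in between is therefore largely set by that choice and is a description. The tested genes as a whole were not chosen in this way. Score-middle cells were closer to the score-low: for the 122 genes the median step was 0.63 from score-low to score-middle and 1.56 from score-middle to score-high, beside 0.04 and 0.22 over all tested genes. Genes per cell moved with these steps: the median was 2401, 2663 and 2816 in score-middle cells of mice 1, 2 and 3, near the score-low cells and below the score-high. Its part in the steps was not tested.

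Among the signalling genes, the receptors and kinases had 0 of 8 tested genes past the threshold, with a median of 0.83, and 0.23 in the matched sets. For a list of 8, 0 calls is near the share of 1.45% over all tested genes. Ifnar2 differed by 1.37 (95% interval 0.26 to 2.47, adjusted p = 0.245). Of the 11 ligand genes in the list, 9 were in the table and none passed the filter on low values. Of 10 transcription factors, 2 were higher, Stat2 among them, with a list median of 1.26 (0.48 after matching, where none passed). Stat2 was at 1.87, 1.04 and 2.13 in score-low cells and 5.09, 4.34 and 5.33 in score-high cells, a difference of 3.24 ± 0.48 (limma, adjusted p = 0.000322). The sets did not overlap, and in the matched sets Stat2 differed by 1.67 (adjusted p = 0.284). Irf9, the partner of Stat2, differed by 1.30 (95% interval 0.24 to 2.36, adjusted p = 0.251).

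Nucleic acid sensors had 5 of 20 tested genes higher, with a median of 1.27 (0.68 and 1 gene after matching). Zbp1, a sensor of left-handed nucleic acid that can start cell death, was listed at 0 in all score-low cells of mouse 2 and was at 1.26 and 1.14 in mice 1 and 3, while score-high cells were at 4.72, 3.69 and 5.25. The difference was 3.75 ± 0.52 (limma, adjusted p = 0.000271), and 2.42 ± 0.45 (adjusted p = 0.0265) after matching. Trex1, an exonuclease that clears DNA from the cytosol, rose from 4.15, 4.27 and 4.58 to 7.93, 7.95 and 8.26, by 3.72 ± 0.49 (adjusted p = 0.000271). After matching its difference was 2.30 ± 0.48 with an adjusted p of 0.0548. Ddx58, the RNA sensor RIG-I, Eif2ak2, the RNA-activated kinase PKR, and Nlrc5, an activator of MHC class I genes, were the other three.

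The guanylate-binding and immunity-related GTPases, which attack the vacuoles of pathogens, had 6 of 11 tested genes higher with a median of 1.51 (0.94 and 0 genes after matching). Irgm1 was at 2.17, 2.89 and 2.15 in score-low cells, 5.45, 4.60 and 6.26 in score-high cells and 1.36, 1.17 and 1.01 in the CK mice, a difference between sets of 3.04 ± 0.57 (limma, adjusted p = 0.00348). MHC class I presentation had 4 of 22 higher, with a median of 1.13 (0.75 after matching). Tap1, the peptide transporter, rose from 3.28, 1.84 and 2.27 to 5.14, 5.89 and 5.78, by 3.14 ± 0.59 (adjusted p = 0.0034). The other three were H2-T24, H2-K2 and H2-Q7, whose reads may be split among near-identical class I genes. The immunoproteasome subunits Psmb9, Psmb8 and Psme2 rose by 2.94, 2.48 and 2.23, 3 of 5 tested, with a list median of 2.23 (1.01 after matching, where none passed).

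Of 16 cytokines and chemokines, 3 were higher, with a median of 1.28 (0.50 and 0 genes after matching). Ccl12, a ligand of the receptor Ccr2, had a mean FPKM of 345, 81.5 and 116 in score-low and 1220, 1258 and 1511 in score-high cells of mice 1, 2 and 3. Its log2 difference was 3.94 ± 0.61 (limma, adjusted p = 0.000386), and 1.96 ± 0.61 (adjusted p = 0.4) after matching. Ccl2, close to Ccl12 in sequence, rose by 3.14 (2.16 after matching). Cxcl10, which draws T cells, was found in 9.68%, 6.45% and 13.6% of score-low and 22.6%, 38.7% and 54.5% of score-high cells and rose by 2.67 (1.83 after matching). Ccl3 and Ccl4, also in the list, did not pass, with differences of 0.48 (95% interval -0.64 to 1.61) and 1.37 (0.39 to 2.35).

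Genes of the phagocytic and lipid-handling activation of microglia did not pass between the sets in either direction: 0 of 30 tested, with a median of 0.31 beside 0.26 over all genes, and -0.15 beside -0.02 in the matched sets. Over all tested genes 1.45% were called higher and 0 lower, so 0 calls in a list of this size is near that share. Cst7, a protease inhibitor of activated microglia, was at 6.10, 3.62 and 6.90 in score-low cells and 7.73, 5.72 and 6.18 in score-high cells. The groups overlapped, and mouse 3 went the other way from mice 1 and 2. The difference was 1.01 (95% interval -0.24 to 2.25), and -0.46 (-1.41 to 0.49) after matching. Apoe, a lipid carrier, was at 7.93, 8.19 and 10.27 in score-low cells and 7.47, 7.92 and 9.02 in score-high cells, lower in the score-high cells of 3 of 3 mice, with a difference of -0.66 (95% interval -1.43 to 0.11, limma adjusted p = 0.463). After matching it was -1.57 (-2.40 to -0.74, adjusted p = 0.194), which did not pass over 8402 genes. Axl, a receptor for dying cells that interferon can raise, differed by 1.37 (0.30 to 2.43, adjusted p = 0.226), and by 1.06 (0.04 to 2.07) after matching.

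Homeostatic microglia genes likewise had 0 of 25 past the threshold, with a median of 0.33, and -0.04 after matching. That count is near the share of 1.45% over all tested genes. P2ry12, a purine receptor of resting microglia, was at 7.96, 8.20 and 6.61 in score-low cells and 6.94, 8.51 and 7.52 in score-high cells, with a difference of 0.07 (95% interval -0.91 to 1.05). Cx3cr1, the fractalkine receptor, was at 8.32, 8.22 and 7.86 in score-low cells and 8.44, 8.48 and 8.37 in score-high cells, a difference of 0.30 (-0.55 to 1.14). The intervals leave room for differences of about 1 on the log2 scale in these genes. MHC class II (8 tested), cell cycle (15), immediate early response (19) and the genes that nearly every cell uses (20) had 0 members past the threshold, with medians of 0.28, 0.49, 0.05 and 0.62, and -0.44, -0.06, -0.23 and 0.11 after matching. For lists of these sizes, 0 calls is again near the share over all tested genes.

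Set beside CK cells of the same week, the score-low cells already differed in these groups. They had 117 genes higher (1.39% of 8402) and 79 lower (0.94%) than the CK 2-week mice (limma, adjusted p under 0.05, 3 mice against 3). Of the 30 phagocytic and lipid-handling genes 16 were higher and 0 lower, with a median of 1.52 beside -0.09 over all genes. Of the 25 homeostatic genes 10 were lower and 0 higher, with a median of -1.56. Axl was at 0.13, 0.22 and 0.19 in the CK and 4.97, 3.23 and 5.60 in the score-low sets of the CKp25 mice, 4.42 ± 0.51 higher (adjusted p = 5.43e-06). Cst7 was 5.28 ± 0.61 and Apoe 3.80 ± 0.66 higher (adjusted p = 5.43e-06 and 0.00128). P2ry12 was at 11.07, 11.34 and 10.35 in the CK mice, and the score-low cells had a level that fell by 3.33 ± 0.54 (adjusted p = 0.000566). None of these groups overlapped.

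The 6 largest increases of score-low cells over CK were Lgals3bp (5.96), Cst7 (5.28), Ccl4 (4.80), Cd52 (4.66), Ccl3 (4.50) and the class I gene H2-D1 (4.45). Among the largest decreases were Gpr165 (-3.49), P2ry13 (-3.46), Gpr56 (-3.44), P2ry12 (-3.33) and Slc2a5 (-3.09). Some interferon genes were also higher in score-low cells than in CK: 14 of 64 antiviral effectors, with a median of 0.55, and 6 of 22 MHC class I genes. Of the effectors, Ifitm3 was 4.34 ± 0.45 and Bst2 3.00 ± 0.60 above CK, and the feedback inhibitor Usp18 was 1.16 ± 0.23 above (limma, adjusted p = 1.16e-06, 0.00451 and 0.00433). The counts rested on single mice: the number higher was 69 without CK mouse 1 and 67 without CK mouse 3, and the number lower was 49, 42 and 40 without CK mouse 2, CKp25 mouse 1 and CKp25 mouse 3. In the matched score-low cells they were 223 (2.65%) and 77 (0.916%), with 17 phagocytic and 10 homeostatic genes, and with the log2 of the mean FPKM the split turned to 86 higher and 139 lower. Matching was between sets within each CKp25 mouse and did not match genes per cell to the CK cells. Median genes per cell were 2482, 2853 and 2968 in matched score-low cells and 2465, 2900 and 2346 in the CK mice.

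Score-high cells were compared with the same CK mice, so these values share their controls with those above. Score-high cells were chosen for high interferon-stimulated genes, while CK cells were not chosen by score. The values of interferon genes against CK, the antiviral list among them, are therefore largely set by that choice and are a description. Score-high cells had 597 genes higher (7.11%) and 95 lower (1.13%). The phagocytic list had 21 genes higher with a median of 1.75, the homeostatic list 10 lower with a median of -1.38, and the antiviral list 57 higher with a median of 2.60. In the matched score-high cells 362 genes were higher (4.31%) and 149 lower (1.77%). There the phagocytic list had 16 genes higher with a median of 1.55, against 17 and 1.70 in the matched score-low cells. The homeostatic list had 9 lower with a median of -1.47, against 10 and -1.39. The order of the score-low and score-high medians of both lists therefore reverses with matching, and that difference was not tested. The antiviral list had 53 higher and a median of 2.22 in matched score-high cells, against 23 and 0.75 in matched score-low cells. Side by side and without matching, the difference from CK in score-low and in score-high cells was 5.28 and 6.29 for Cst7, 4.42 and 5.79 for Axl, 3.80 and 3.13 for Apoe, -3.33 and -3.26 for P2ry12, and 1.16 and 5.22 for Usp18.

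**Figure D3:**
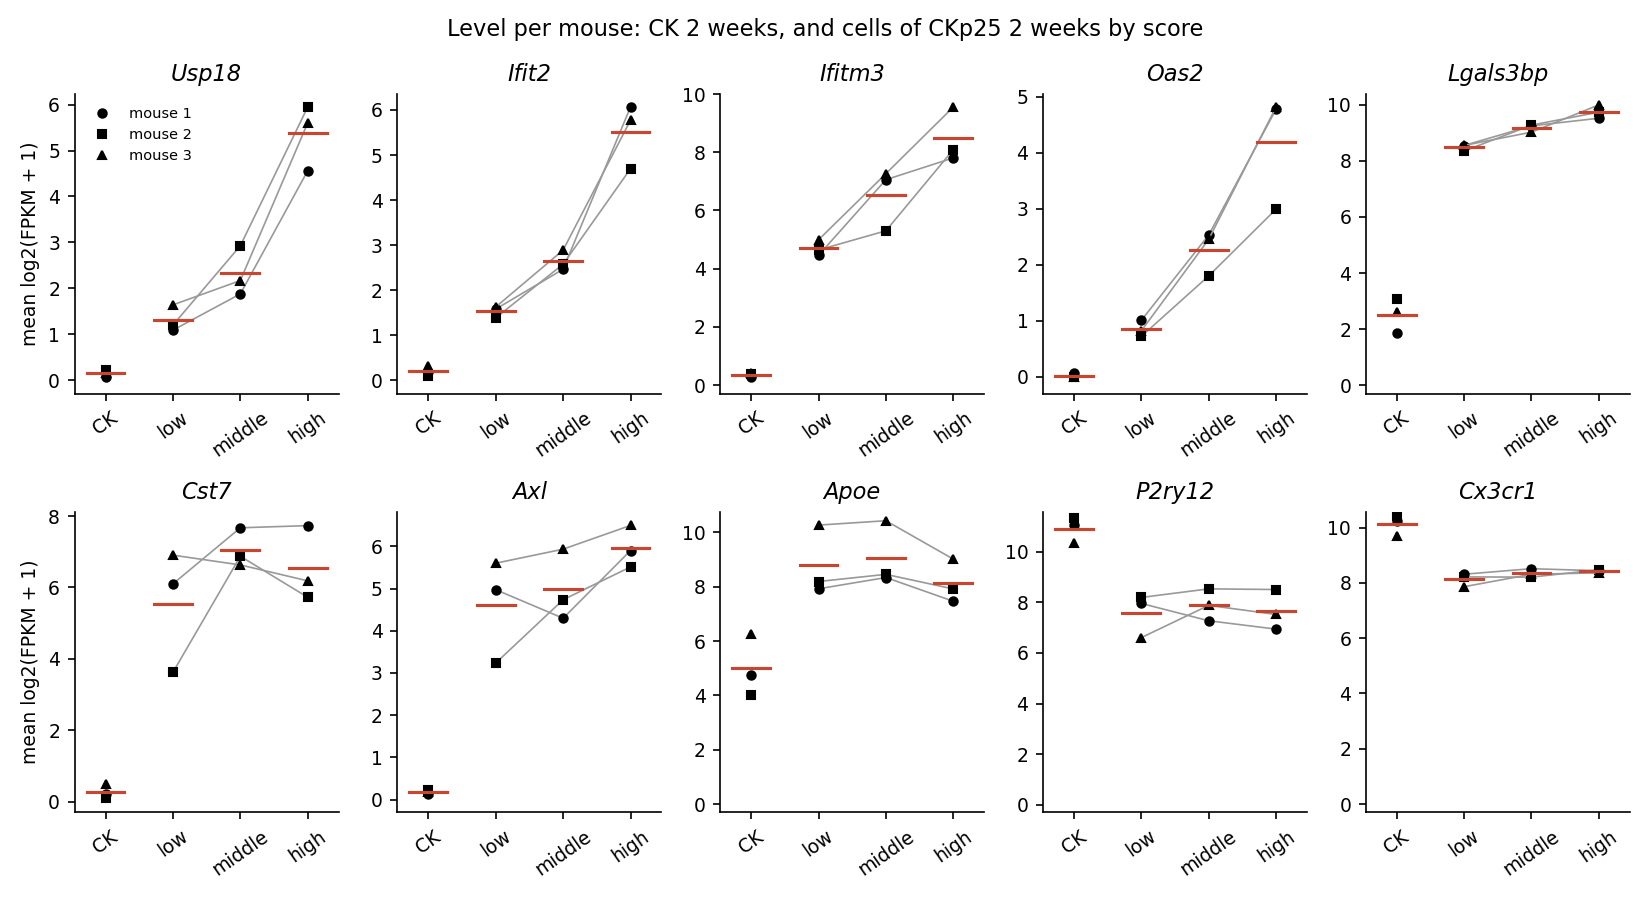
Mean log2(FPKM + 1) per mouse (vertical axis) in CK 2-week cells and in score-low, score-middle and score-high CKp25 2-week cells, for 10 genes. Symbols are mice, red bars means over 3 mice, and grey lines join the sets of 1 CKp25 mouse; Usp18, Ifit2, Ifitm3 and Oas2 climb from set to set on average, while Cst7, Axl, Apoe, P2ry12 and Cx3cr1 stand apart from CK in every set.

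**Figure D4:**
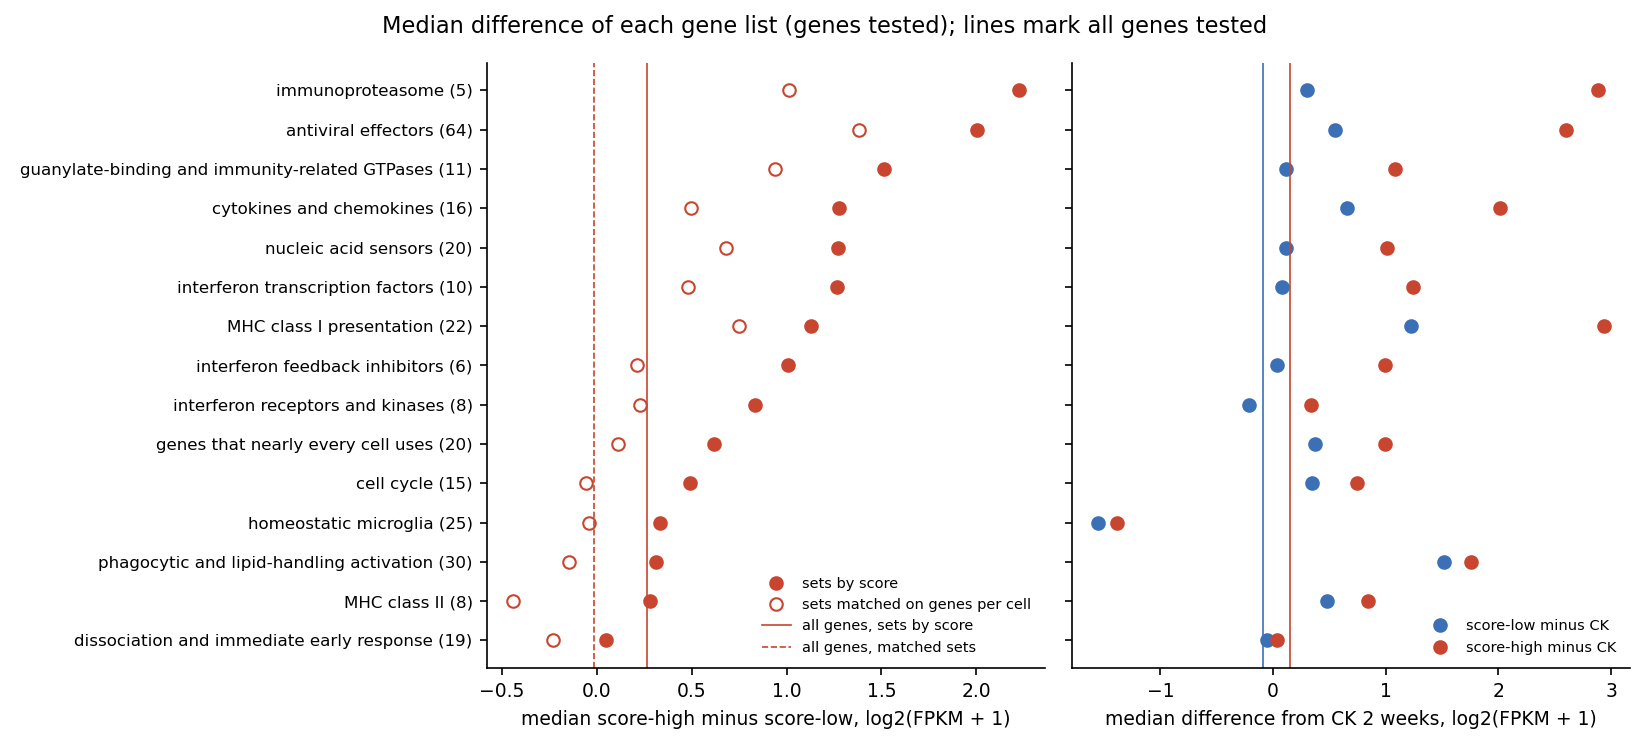
Median difference of each gene list, on the log2(FPKM + 1) scale (horizontal axes). Left, score-high minus score-low, filled for sets by score and open for sets matched on genes per cell, with lines at the medians over all genes of 0.26 and -0.02; right, score-low and score-high minus CK 2-week mice, where the phagocytic list is at 1.52 and 1.75 and the homeostatic list at -1.56 and -1.38. In the matched sets, not drawn at right, the order of both lists reverses, at 1.70 and 1.55 and at -1.39 and -1.47.

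CKp25 mice at 6 weeks, whose cells are not among the 168, were divided in the same way. The sets are relative to each mouse: the lowest score-high value was 5.20, 4.36, 1.99 and 4.35 in 6-week mice 1 to 4, and the highest score-low value ran from 0.57 in mouse 3 to 2.73 in mouse 4. Score-high cells of 6-week mouse 3 thus began below the highest score-low values of all 3 mice at 2 weeks, and sets of the same name do not hold cells of the same score at both weeks. Mice 1 and 2 at 6 weeks, with 46 and 57 wells, carry well names from separate stretches of 1 plate's numbering. Of the wells of mouse 2, 7 repeat a well name with a suffix, and these 7 names are not used among the 89 wells of mouse 3. They were taken as labelled, and without them 118 genes were higher at 2 weeks and 278 at 6 weeks.

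The 6-week score-low and score-high sets held 148 cells, and 284 genes were higher (3.38%) and 0 lower in score-high cells (limma, same fit; 50 lower at an unadjusted p under 0.05). Of the 122 genes of 2 weeks, 119 had a difference above 0 at 6 weeks, with a median of 1.44. Over all tested genes 78.3% lay above 0 at 6 weeks, with a median of 0.26. Of the 122, 65 passed at 6 weeks, which is 53.3% of the 2-week calls and 22.9% of the 6-week calls. The fit estimates 1 spread per gene from the mice of both weeks, so a gene with a small spread can pass more easily at both. The overlap is therefore not independent of the 2-week calls. Usp18 differed by 5.50, 4.48, 1.56 and 5.05 in the 4 mice, and Ifitm3 by 6.96, 3.11, 4.57 and 4.54. Isg15 did not pass at 6 weeks, with differences of 2.32, -0.12, 0.29 and 2.63. Without 6-week mouse 1 or 3 the count was 116 or 93, and without mouse 2 it was 375.

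In the matched sets, 0 genes passed at 6 weeks (limma, 317 higher and 302 lower at an unadjusted p under 0.05), with a smallest adjusted p of 0.119. The 12 genes called after matching at 2 weeks all had matched 6-week differences above 0 with an unadjusted p under 0.05, and 11 of them passed at 6 weeks without matching. These p-values also rest on a spread shared by both weeks. The difference itself did not change between weeks for any gene at an adjusted p under 0.05 (158 larger and 183 smaller at 6 weeks at an unadjusted p under 0.05). In the lists, Cst7 differed by 2.23 at 6 weeks (adjusted p = 0.0177) and by 0.34 (adjusted p = 0.893) after matching, and Cd74, the class II chaperone, by 2.15 (adjusted p = 0.0244) and 0.31 (adjusted p = 0.921).

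By correlation with the score over cells, the 10 genes most like it were Usp18, Ifit2, Helz2, Oas2, Pyhin1, Isg15, Stat2, Zbp1, Pydc3 and Sp100. Their Spearman coefficients, averaged over the 3 mice with 93, 95 and 67 cells, ran from 0.54 for Usp18 down to 0.49 for Sp100, beside a median of 0.07 over the 8402 genes. Axl was at 0.25, Clec7a at 0.04, P2ry12 at -0.09 and Apoe at -0.12. The cells behind each coefficient share a mouse, and the score itself went with genes per cell at 0.28, 0.44 and 0.39.

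The cells were checked against markers of microglia and of other cells. All 84 score-high and all 84 score-low cells had at least 3 of 8 microglia markers at FPKM 1 or above, and the summed log2 level of these markers was 68.2 to 73.7 in score-low, 71.8 to 75.6 in score-high cells and 80.2 to 88.3 in the CK mice. Monocyte markers summed to 0.38 to 1.36 in score-low cells and 2.25 to 3.34 in score-high cells. Of the 8 monocyte markers, 5 were listed at 0 in every cell of both sets, Chil3, F13a1, Vcan and S100a4 among them, and Plac8, 1 of the other three, was among the 122 genes with a difference of 1.90. Oligodendrocyte markers summed to 2.02 to 3.84 and 4.62 to 5.76, astrocyte markers to 1.66 to 3.66 and 3.50 to 5.88, and endothelial markers to 0.16 to 0.42 and 0.73 to 1.95. Among score-low and score-high cells, 0 and 4 cells had at least 3 oligodendrocyte markers, 1 and 3 cells at least 3 astrocyte markers, and 0 and 1 cells at least 3 monocyte markers. Their part in the results was not tested.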

How the data were processed

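Libraries were made from single sorted cells with Smart-seq2, per the labels' protocols. The authors deposited 1 table of FPKM for 23951 genes in 2208 wells. Cufflinks 2.2 and build mm9 are named in the submitters' processing notes. The name of the deposited table includes TopHat. For its version and the annotation, not given in the sources used here, nothing is assumed. FPKM keep no read counts, so depth per value is unknown and no counting interval was computed. Of all values, 90.0% were 0, and a 0 was read only as listed at 0. The table holds no molecule counts, so doublets were not called. The first well of each mouse was left out: 19 of 25 held over 8000 genes, and the stated number of single-cell libraries equals the wells without them.

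The cells, the score and the gene lists were chosen with earlier results of these data known. The mouse was the replicate. A profile was the mean over the score-low or score-high cells of a mouse of log2(FPKM + 1), a scale that understates changes of low genes. A gene was tested when 10% or more of the cells reached FPKM 1 in 3 or more of the 10 mice (8402 genes). limma 3.58.1 (R 4.3.3, trend and robust) was fitted to the score-low and score-high profiles of the 3 CKp25 2-week and 4 CKp25 6-week mice with the mouse as a replicate block, which is paired because both profiles come from 1 animal, with 5 residual degrees of freedom. Tests were 2-sided, Benjamini-Hochberg adjusted, threshold 0.05. Comparisons with CK mice were fitted separately without covariates. Score-middle cells entered no test. Matched sets ranked cells by score within successive groups of 3 cells ordered by genes per cell.

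Named genes were the 12 largest called positive and up to 8 largest called negative differences with 1 sign in all 3 mice (no gene was called negative), every called list member and the 4 of each list with the smallest p, the 6 largest in each direction against CK, the 10 most correlated with the score, score genes and cell type markers. Other genes named with values (Socs1, Irf9, Axl, Clec7a and Cd74 among them) were chosen from the lists after values were seen. Some genes that this rule selects are not reported here. Promoters were matched by symbol, and 6438 of 8402 tested genes had a window. Python 3.11.15, numpy 2.4.6, pandas 2.3.3 and scipy 1.17.1 were used. On simulated data for the 2-week comparison over 8402 genes, 15% of 100 changes of log2 size 1 and 64% of 100 changes of size 2 were recovered, with 2 false calls. A gene that did not pass may therefore still differ. The simulated noise was independent between genes and held no shift common to all genes, unlike the median of 0.26 in the data. The 2 false calls thus give no rate for the 122 genes. The labels give no batch beyond the mouse and its well names.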

Additional observations from a re-analysis of the deposited data

How the results depend on the processing

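Under 21 settings, 1 of which (7 wells with suffixed names left out) was chosen after seeing the data, the 122 genes higher at 2 weeks kept differences above 0 in each setting that tested them (101 of them with a filter at 25% of cells), but their number moved. It was 24 with quantile normalization, 64 with no replicate block (the fit that ignores the pairing), 420 with the 2-week mice alone (and 1 lower), 52 with no filter on low values, 4 with the log2 of the mean FPKM, 12 with matched sets, 43 with at least 1500 genes per cell and 193 with first wells kept. Without 1 mouse it ran from 24 to 202. At 6 weeks the 284 genes became 29 (and 7 lower) with quantile normalization, 78 with no replicate block, 60 with no filter, 8 with the log2 of the mean FPKM, 0 with matched sets, 71 with at least 1500 genes per cell and 532 with first wells kept, and 93 to 375 without 1 mouse. Genes lower at 6 weeks were 1 with the 25% filter, 1 with at least 1500 genes, 2 with first wells kept and 1 with rescaled FPKM. Score-low cells against CK had 225 genes higher and 168 lower with quantile normalization, 30 and 5 with no filter, 223 and 77 with matched sets, 86 and 139 with the log2 of the mean FPKM, and 82 and 52 with cells of like detection (1207 to 3586 genes per cell), and 67 to 147 and 40 to 101 without 1 mouse. The 12 genes of the matched sets, in settings chosen after seeing the data, became 5 with no replicate block, 0 with quantile normalization, 0 when the log2 was taken of the mean FPKM and 0 with at least 1500 genes per cell, and 0 to 20 without 1 mouse; all 12 differences stayed above 0 in each. Without matching, 11 of these 12 passed under quantile normalization and 3 when the log2 was taken of the mean FPKM. The causes of these moves were not tested. Depth is unknown, and 3 mice limit the precision.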

Other observations

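Of the 122 genes higher in score-high cells, 58 were in none of the gene lists. The largest were Fgl2 (2.96, and 2.37 in sets matched on genes per cell), AI607873 (2.93 and 1.67), Tmem219 (2.73 and 1.82), Pydc3 (2.51 and 1.72) and Trafd1 (2.51 and 1.80), chosen here after their values were seen. None passed in the matched sets (limma, adjusted p = 0.0801 for Fgl2 and 0.207 for AI607873). Without 2-week mouse 1, 2 or 3, only 53, 23 or 27 of the 122 genes were still called. Whether the genes named in this paragraph were among them is not given here. Of 82 ribosomal protein genes tested, 3 were called (Rps20, Rpl39 and Rps19), and the median of the 82 was 1.05, against 0.17 in the matched sets. Over all 8402 tested genes 1.45% were called higher, and the medians were 0.26 and -0.02. With 3 calls, no result about ribosomal genes is drawn.

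The share of a plate row's kept cells that were score-high ran from 8.33% to 50% in mouse 1, from 8.33% to 66.7% in mouse 2 and from 0% to 85.7% in mouse 3, over rows of 7 to 12 cells. No test of plate position was made.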
